A study of Mus musculus with 4 samples.

Results

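The 7 genes described here are AI506816, Btbd10, Mns1, Ifi202b, Entpd4, Rps27l and Arl3, out of 19938 named genes measured on the same arrays. They were chosen by their measured values, because the noggin transgenic epidermis read lower than the BMP4 transgenic epidermis on every array, so that separation is a description of them and not a finding. The arrays carried RNA from the epidermis of hairless mouse hindpaw skin, cut from frozen sections by laser, with 8 to 10 strips per animal. One group carried a K14 promoter-driven noggin transgene and the other a K14 promoter-driven BMP4 transgene, the K14 promoter being active in basal keratinocytes, and both groups therefore carry a transgene driven from the same cells. Each group had 6 animals in 2 pools of 3, and each pool gave 1 array, so that n = 2 pools throughout and the spread within a group is a spread between pools. Non-transgenic epidermis was not analysed here, and the values do not tell whether a gene was low in noggin skin or high in BMP4 skin. The arrays labelled noggin are called noggin arrays here, and likewise for BMP4. The probe set of Nog itself read 5.92 and 5.99 in the noggin arrays and 6.13 and 6.04 in the BMP4 arrays, so it was not higher where the label names it. The probe set of Bmp4 read 7.77 and 7.86 in the noggin arrays and 8.23 and 8.03 in the BMP4 arrays, on the side of its label. Whether either probe set can bind the transgene's RNA is not stated in the sources, so the Nog values leave the noggin label unchecked. The labels give no strain, age or sex, and the transgene and any other difference between the lines cannot be told apart in this design. In bulk tissue, fewer cells that express a gene and less RNA of it per cell cannot be told apart either.

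BMP4 is a secreted ligand that acts through receptor kinases and SMAD transcription factors, and noggin binds BMP ligands outside the cell and keeps them from their receptors. The 7 genes are not a pathway. AI506816 is a long non-coding RNA of the mouse genome annotation. Ifi202b encodes p202, an interferon-inducible protein of the PYHIN family that binds DNA through HIN domains, lacks the pyrin domain of its relatives and restrains the AIM2 inflammasome. Rps27l encodes a ribosomal protein that resembles RPS27 and is induced by p53. Btbd10 encodes a BTB-domain protein that binds AKT kinases and keeps them phosphorylated. Arl3 is a small GTPase that releases lipid-modified cargo into the primary cilium, Mns1 is a coiled-coil protein of motile cilia and sperm flagella, and Entpd4 is a nucleoside diphosphatase of the Golgi and lysosome.

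The sequence upstream of the 4 genes with a gap of at least 1 log2 unit between the lowest BMP4 and the highest noggin array is shown first, because their promoters are the part of each locus that could be compared letter by letter. The reference table held a promoter window, running from 250 bases before to 50 bases after an annotated start, for 6 of the 7 genes. The windows below are RefSeq sequence of GRCm38.p6, which is a C57BL/6J genome, and no source used here gives the strain of these animals. Capitals mark every match, on either strand, to 5 short motifs: GGCGCC (bound by SMAD1 and SMAD5), TTCNNNGAA (the core of interferon-activated STAT sites), GTTGCC (bound by RFX factors), CCAAT and TATAAA. AI506816 lies on the minus strand at chr5:23712618-23712917, Btbd10 on the minus strand at chr7:113369290-113369589, Mns1 on the plus strand at chr9:72438279-72438578 and Ifi202b on the minus strand at chr1:173982795-173983094.
AI506816: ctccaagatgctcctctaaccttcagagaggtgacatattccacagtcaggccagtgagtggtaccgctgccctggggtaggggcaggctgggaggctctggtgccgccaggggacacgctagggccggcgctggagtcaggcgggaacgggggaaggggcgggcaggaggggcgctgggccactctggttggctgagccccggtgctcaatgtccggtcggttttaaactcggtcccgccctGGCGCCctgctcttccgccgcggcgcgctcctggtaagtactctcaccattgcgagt
Btbd10: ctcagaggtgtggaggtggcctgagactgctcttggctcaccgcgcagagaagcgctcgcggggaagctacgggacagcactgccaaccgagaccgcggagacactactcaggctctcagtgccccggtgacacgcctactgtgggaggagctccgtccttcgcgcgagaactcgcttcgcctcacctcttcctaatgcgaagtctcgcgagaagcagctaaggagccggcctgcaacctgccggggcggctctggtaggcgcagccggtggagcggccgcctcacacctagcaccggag
Mns1: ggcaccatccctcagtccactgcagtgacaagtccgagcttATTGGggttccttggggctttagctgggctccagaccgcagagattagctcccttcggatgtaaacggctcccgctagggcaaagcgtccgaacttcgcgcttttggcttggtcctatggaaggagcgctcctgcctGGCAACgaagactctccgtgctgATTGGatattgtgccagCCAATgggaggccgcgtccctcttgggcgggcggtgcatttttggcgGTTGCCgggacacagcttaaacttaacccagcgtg
Ifi202b: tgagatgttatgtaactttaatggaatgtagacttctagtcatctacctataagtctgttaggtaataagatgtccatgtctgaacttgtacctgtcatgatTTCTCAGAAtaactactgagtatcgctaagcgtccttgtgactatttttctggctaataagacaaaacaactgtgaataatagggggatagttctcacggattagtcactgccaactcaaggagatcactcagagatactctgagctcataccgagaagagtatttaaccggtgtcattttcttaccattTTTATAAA

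The 4 windows share none of these motifs. AI506816 held 1 GGCGCC, which 11.9% of the 32851 promoter windows in the table also held, and no other of the 5 motifs. Btbd10 held no match to any of them. Mns1 held 2 GTTGCC matches, RFX factors being regulators of ciliary genes, and 3 CCAAT boxes, against 12.5% and 37.4% of all windows with at least 1. Ifi202b held 1 TTCNNNGAA, found in 8.3% of windows, and 2 overlapping TATAAA matches, found in 13.6%. Of the other members, Arl3 held 1 CCAAT, and the 2 windows of Rps27l held 1 CCAAT and 1 GGCGCC. Base composition also separated them. The Ifi202b window held 5 CpG dinucleotides, below the median of 7 over all windows, while AI506816 held 21, Btbd10 28, Mns1 19 and Arl3 29. Matches of this length are a description of the reference letters and show no binding.

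**Figure D1:**
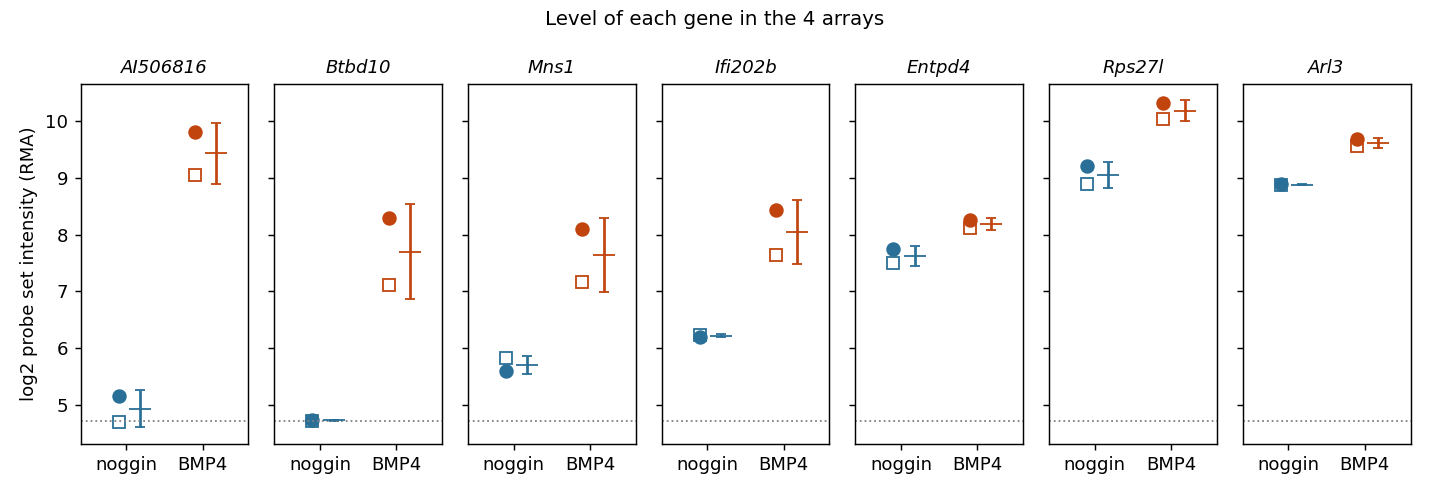
Log2 probe set intensity of the 7 genes on the 4 arrays, with replicate 1 as filled circles, replicate 2 as open squares, and bars for the mean ± SD of 2 pools beside them. The dotted line is the mean lower quartile of the arrays. In noggin epidermis both arrays of Btbd10 and replicate 2 of AI506816 sat at that line, and BMP4 replicate 1 stood above BMP4 replicate 2 in every panel.

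AI506816, the non-coding RNA, had the largest gap of all genes between the lowest BMP4 and the highest noggin array, while Krtap3-3 and Krt84 had larger differences of means, at -4.98 and -4.75. Its log2 values were 5.16 and 4.70 in the noggin arrays and 9.82 and 9.05 in the BMP4 arrays. The group means were 4.93 ± 0.33 (SD, n = 2) and 9.44 ± 0.54 (SD, n = 2), a difference of -4.51 (noggin minus BMP4), or 22.7-fold higher in BMP4. The lower quartile of the noggin arrays was 4.71, so noggin replicate 2 read at that quartile and replicate 1 above it, by about as much as the 2 arrays differed (0.46). Detection above background is unknown there, and the size of the fold is uncertain.

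Btbd10, the AKT-binding protein, gave 4.74 and 4.72 in the noggin arrays and 8.30 and 7.11 in the BMP4 arrays. Its means were 4.73 ± 0.012 (SD, n = 2) and 7.70 ± 0.84 (SD, n = 2). Its noggin arrays lay at the lower quartile and within 0.016 log2 units of each other, and nearly all of its spread came from the BMP4 pools, which lay 1.19 apart. The BMP4 mean was 7.85-fold higher, a fold whose size is uncertain for the same reason.

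Mns1 and Ifi202b, a flagellar and a DNA-binding protein, had nearly the same pattern. Mns1 read 5.59 and 5.82 in noggin and 8.10 and 7.18 in BMP4, with a difference of -1.93 and a 3.82-fold higher BMP4 mean. Ifi202b read 6.20 and 6.24 in noggin and 8.44 and 7.65 in BMP4, with a difference of -1.83 and a 3.55-fold higher BMP4 mean. The noggin arrays lay 0.23 apart for Mns1 and within 0.04 for Ifi202b. In both genes the lower BMP4 array stood more than 1 log2 unit above the higher noggin array.

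Rps27l, Arl3 and Entpd4 differed less, and all 4 arrays read them well above the lower quartile. Rps27l, the p53-induced ribosomal protein, read 9.22 and 8.89 in noggin and 10.32 and 10.05 in BMP4, a difference of -1.13 and a 2.19-fold higher BMP4 mean. Arl3, the ciliary GTPase, read 8.89 and 8.88 in noggin and 9.69 and 9.56 in BMP4, a difference of -0.74 and a 1.67-fold higher BMP4 mean. Entpd4, the Golgi nucleotidase, read 7.75 and 7.50 in noggin and 8.27 and 8.12 in BMP4, a difference of -0.57 and a 1.49-fold higher BMP4 mean. In each of these 3 genes the groups did not overlap, which the choice of the members fixes. Noggin was the lower without overlap in 17.9% of all genes. The Arl3 noggin arrays lay 0.013 apart.

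Each of the 7 genes had 1 probe set with a single gene symbol, so no second probe set of that kind could be set beside it. Probe sets with several symbols were left out of the gene values, and any that name a member were not used. The gene table also lists Entpd4b, a close copy of Entpd4, and it lists Ifi202a as a synonym of Ifi202b. Probes that bind both copies would mix their signals, which was not tested, and no probe set with Entpd4b as its only symbol was analysed here.

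The name of the AI506816 probe set carries a further limit. The gene table places AI506816 on chromosome 5, while of the 20 genes whose probe sets carry the nearest numbers 19 lie on chromosome 1, among them Olfml2b and Fcgr4. For the other 6 genes the chromosome of the nearest-numbered probe sets was that of the gene itself, for 19 or 20 of 20 genes. No source used here gives the locus from which the AI506816 probes were drawn, and the promoter printed above is that of the named gene.

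Ranked by the gap between the lowest BMP4 array and the highest noggin array, AI506816 came 1st of 19938 genes with a gap of 3.89. Btbd10 came 5th with 2.37, Ifi202b 7th with 1.41, Mns1 8th with 1.36, Rps27l 21st with 0.84, Arl3 28th with 0.67 and Entpd4 112th with 0.37. By the choice of the members the groups did not overlap, with noggin the lower, in 7 of 7 members, and the same was true of 17.9% of all genes. A gap of at least 1 log2 unit was present in 4 members and in 0.0702% of all genes (14 genes), and a gap of at least 0.5 in 6 members and in 0.271% (54 genes). The choice of the members fixes these counts, and nothing is read from them. In the opposite direction, with noggin above BMP4, 7 genes had a gap of at least 1 and 55 a gap of at least 0.5.

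**Figure D2:**
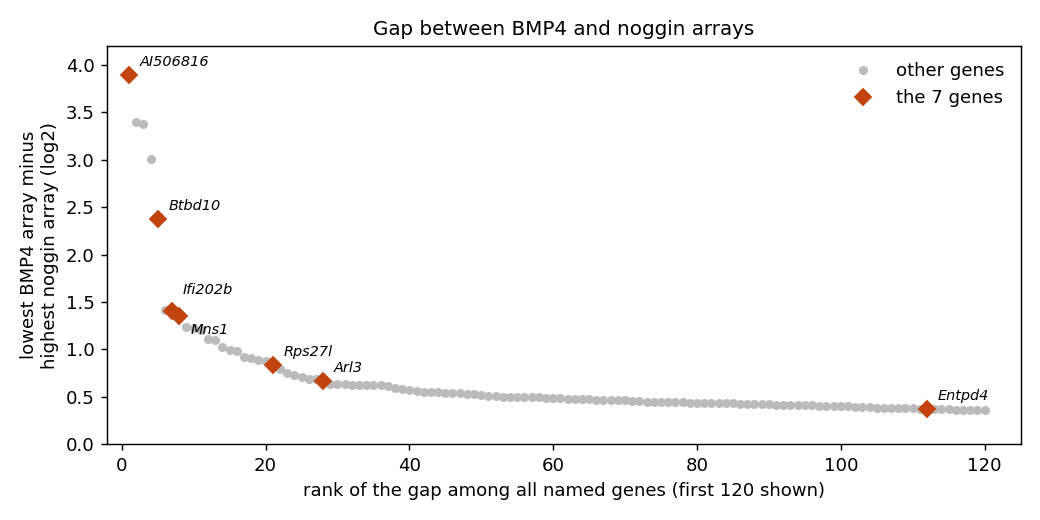
Gap between the lowest BMP4 array and the highest noggin array, in log2 units, for the 120 genes with the largest gaps, plotted by rank. The 7 genes are diamonds; AI506816 leads with 3.89, and Entpd4, at 0.37, lies on the flat part of the curve with 105 genes outside the list above it.

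The members were thus not all at the top of this ranking. Of the genes outside the list, 105 had a larger gap than Entpd4. Msantd2 lay just above Entpd4 with a gap of 0.38, at 6.85 and 6.98 in noggin and 7.39 and 7.36 in BMP4, and Snapc1 just below it with 0.37. The largest gaps outside the list belonged to the hair genes Krtap3-3 (3.40) and Krt84 (3.38) and to Skint3 (3.01), whose family is expressed in skin and thymus. Krtap3-3 differed from AI506816 in how far its BMP4 pools lay apart, at 11.44 and 8.29.

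Across all 35556 probe sets, limma called 0, or 0% of those tested, at an adjusted p below 0.05, and 1994 lay at an unadjusted p below 0.05. The members were chosen by this contrast, and no p is given for them.

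The replicate pools of BMP4 epidermis differed in the same direction in all 7 genes, replicate 1 being the higher. The 2 BMP4 arrays lay 0.77 log2 units apart for AI506816, 1.19 for Btbd10, 0.93 for Mns1 and 0.80 for Ifi202b. For these 4 genes that distance was larger than in 98.6%, 99.5%, 99.2% and 98.8% of genes. The median distance between the BMP4 arrays was 0.12 over all genes. For Rps27l, Arl3 and Entpd4 the BMP4 arrays lay 0.26, 0.13 and 0.14 apart. The noggin arrays had no common order, with replicate 1 the higher in 5 of 7 genes.

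The same order of the BMP4 pools was seen outside the list. Of 48 other genes with a gap of at least 0.5, BMP4 replicate 1 was the higher in 43, against 47.1% of all genes. Against the noggin mean, BMP4 replicate 2 alone stood 4.12 higher for AI506816, 2.38 for Btbd10, 1.47 for Mns1 and 1.43 for Ifi202b. It stood 0.68 higher for Arl3 and 0.50 for Entpd4. With BMP4 replicate 1 left out, every one of the 7 differences kept its sign, which the choice of the members fixes.

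**Figure D3:**
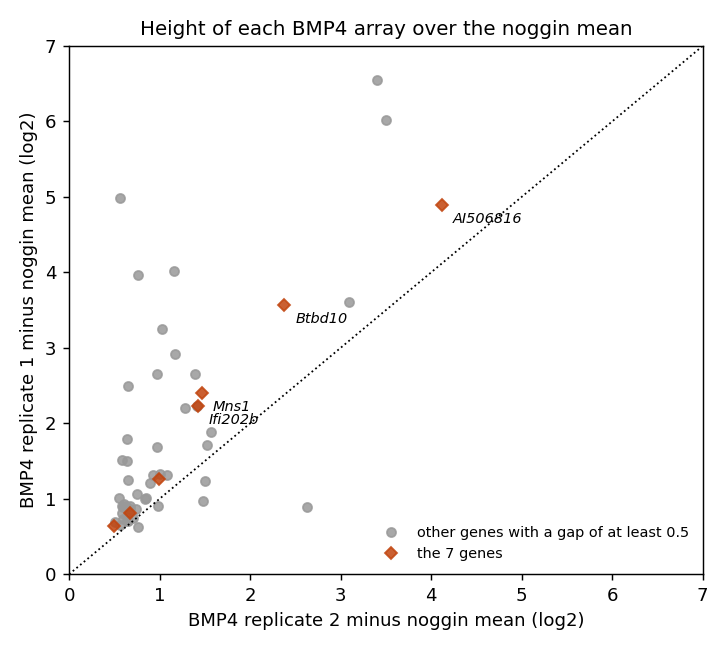
Height of BMP4 replicate 1 (vertical) and BMP4 replicate 2 (horizontal) over the mean of the noggin arrays, in log2 units, for the 7 genes (diamonds) and the other genes with a gap of at least 0.5 (circles). The dotted line marks equal height; all 7 genes and 43 of the 48 others lie above it.

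Likeness was measured as the Euclidean distance between log2 values centred on each gene's mean, over 4 arrays, which mainly compares the size of the differences. Mns1 and Ifi202b were the closest pair, 0.20 apart, followed by Entpd4 and Arl3, 0.24 apart. AI506816 and Entpd4 were the farthest, 3.96 apart.

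The genes outside the list with the most similar pattern came from several families. For Mns1 they were Krt6a, a keratin of stressed epidermis, at a distance of 0.16, and Krt25, a keratin of the inner root sheath, at 0.31. For Ifi202b they were the same keratins in reverse order, at 0.17 for Krt25 and 0.21 for Krt6a. Krt6a read 8.65 and 8.99 in noggin and 11.05 and 10.23 in BMP4, so the order of its BMP4 pools was also that of Mns1. For Btbd10 the nearest were Skint3 at 0.61 and Adh6a, an alcohol dehydrogenase, at 0.98, and for AI506816 Skint3 at 1.19 and Krt84 at 1.35, so neither had a close match. For Rps27l the nearest were the tubulin Tubb3 at 0.17 and Dapk2, a death-associated protein kinase, at 0.23. For Arl3 they were the sarcoglycan Sgcb at 0.088 and the spindle gene Spag5 at 0.090, and for Entpd4 the T-box gene Tbx15 at 0.069 and Gemin8 at 0.078. With 4 arrays many genes can share a pattern, and the distances are a description.

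The position of the members on their chromosomes was not used to choose them. For each member the 10 nearest measured genes on each side, in the order of the GRCm38.p6 gene table, were compared between the same arrays. Of these 140 neighbours, 21, or 15.0%, read lower in noggin without overlap of the groups, against 17.9% of all genes. Another 30 of the 140 read higher in noggin without overlap, where 15.7% of all genes did. The 20 neighbours of AI506816, whose probe locus is not known here, held 0 of the 21. The median difference of the 140 was 0.0027, and that of all genes was -0.0064. With 1 array left out, the share lower in noggin was 26.4% to 33.6% of the neighbours and 31.4% to 40.3% of all genes. The neighbour median was then between -0.0017 and 0.037.

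**Figure D4:**
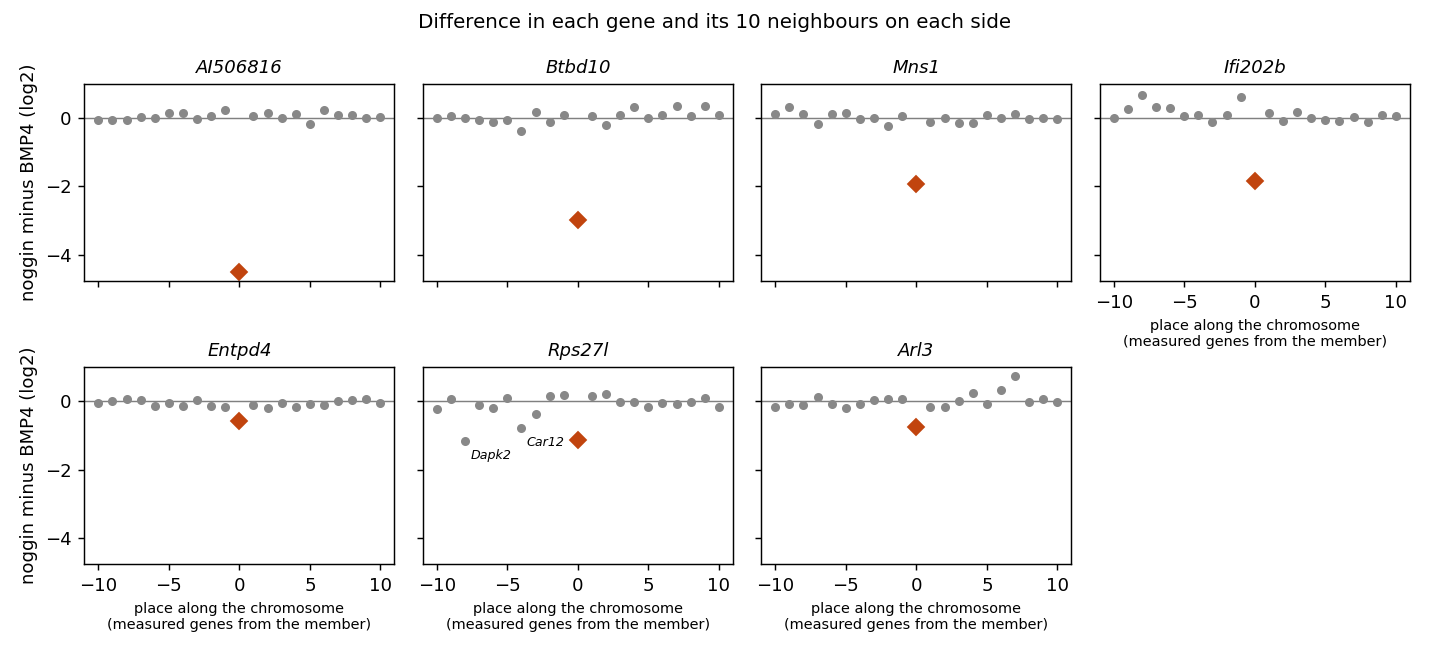
Difference between noggin and BMP4 means (log2, vertical) for each of the 7 genes (diamond at place 0) and the 10 measured genes on each side of it (circles), by place along the chromosome. The farthest below 0 are Dapk2 and Car12 on one side of Rps27l, and the farthest above are Nt5c2 beside Arl3 and Aim2 and Ifi203 beside Ifi202b.

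The genes directly beside AI506816, Btbd10 and Mns1 differed by at most 0.24. Beside AI506816, the splicing kinase gene Srpk2 differed by 0.24 and the pseudouridine synthase gene Pus7 by 0.05. Beside Btbd10, the clock gene Arntl differed by 0.09 and the parathyroid hormone gene Pth by 0.05. Beside Mns1, Zfp280d differed by 0.05 and Tex9 by -0.12. None of these 6 was called by limma, with adjusted p from 0.951 to 0.995. No neighbour of AI506816 in the gene table lay lower in both noggin arrays, where 17.9% of all genes did. Among the 20 genes with the nearest probe set numbers 2 did, with a median of 0.05.

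Ifi202b lies among other PYHIN genes, and its nearest neighbours had the higher mean in noggin. Ifi203, next to it on one side, read 6.35 and 7.36 in noggin and 6.44 and 6.04 in BMP4, with overlapping groups, and Ifi205 on the other side differed by 0.14. Of its 20 neighbours 1 lay lower and 5 lay higher in both noggin arrays, where 17.9% and 15.7% of all genes did. Of 20 neighbours each, Entpd4 had 4 lower and 1 higher in both noggin arrays, and Arl3 had 4 lower and 6 higher. Entpd4 had Synb at -0.17 and R3hcc1 at -0.11 beside it, and Arl3 had Trim8 at 0.05 and Sfxn2 at -0.17. A few places from Arl3, the cytosolic nucleotidase gene Nt5c2 differed by 0.74 in the opposite direction, at 8.49 and 8.64 in noggin and 7.44 and 8.20 in BMP4 (limma, adjusted p = 0.874).

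Beside Rps27l, 6 of 20 neighbours lay lower and 5 lay higher in both noggin arrays, where 17.9% and 15.7% of all genes did. Of the 140 neighbours of all members, 2 had a difference of -0.5 or lower, a share near the 1.21% of all genes. Both lie beside Rps27l. Dapk2 read 7.62 and 6.97 in noggin and 8.62 and 8.30 in BMP4, a difference of -1.17 (limma, adjusted p = 0.768). Car12, a membrane carbonic anhydrase, read 6.65 and 6.65 in noggin and 7.56 and 7.29 in BMP4, a difference of -0.77 (limma, adjusted p = 0.732). The genes directly beside Rps27l, Rab8b and Lactb, did not share that sign and differed by 0.19 and 0.14. Mns1 lies on chromosome 9 too, outside this stretch of neighbours.

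The relatives and partners of each member were counted with the members left out. Of 9 other measured PYHIN genes, 8 read higher on average in noggin and 1 lower. All 9 are also among the neighbours of Ifi202b described above, so their values are the same observation given again. The median of the list was 0.14, 4 lay higher in both noggin arrays, where 15.7% of all genes did, and limma called 0. Leaving out noggin replicate 1 gave 0.32, and leaving out noggin replicate 2 gave 0.07. Aim2, the DNA sensor that p202 restrains, read 7.14 and 7.84 in noggin and 6.53 and 7.08 in BMP4, a difference of 0.69 (limma, adjusted p = 0.914). Ifi214 differed by 0.28 and Ifi206 by 0.31. Interferon-stimulated genes, among which Ifi202b is usually counted, read higher on average in noggin for 20 of 25 genes. They had a median difference of 0.11, and limma called 0. The chemokine Cxcl9 differed by 1.60 (limma, adjusted p = 0.640), the RNA sensor Ifih1 by 0.91 and the chemokine Cxcl10 by 0.56, while Ifit3 differed by -0.64. Without BMP4 replicate 1 the interferon median was 0.03, with 14 of 25 genes higher, and it was 0.21 when BMP4 replicate 2 was dropped in its place.

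For Rps27l, the p53 targets and the ribosomal protein genes are given. Of 25 other p53 target genes, 11 read lower and 14 higher in noggin. The median over the list was 0.04, and limma called 0. Mdm2, the p53 ubiquitin ligase, differed by 0.03. The largest differences of either sign were 0.36 for the death receptor Fas and -0.28 for Sesn1, a sestrin. The 22 measured genes for proteins of the small ribosomal subunit differed by between -0.12 and 0.16. Their median of 0.02 became -0.0013 when BMP4 replicate 2 was dropped and 0.04 when BMP4 replicate 1 was. Rps27, whose protein RPS27L resembles, was not among them. Whether the Rps27l probes also bind Rps27 RNA was not tested.

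For Btbd10, 10 of 14 genes of the AKT pathway read lower on average in noggin. As a list they had a median difference of -0.07, or between -0.05 and -0.0082 with any 1 array left out, and limma called 0. Kctd20, which is related to Btbd10, differed by -0.17, and the kinase genes Akt1 and Akt2 by -0.19 and -0.15. For Entpd4, the 8 other measured nucleoside diphosphohydrolases had a median of 0.0037, with 4 on each side. Dropping noggin replicate 1 gave -0.07 with 5 of 8 lower, and dropping noggin replicate 2 gave 0.08 with 2 of 8 lower. Entpd1, the CD39 ectonucleotidase of Langerhans and T cells, was the one that differed most, by 0.62 in the opposite direction (limma, adjusted p = 0.848).

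For Arl3, 10 partners and related genes had a median of -0.06, with 4 lower and 1 higher in both noggin arrays, against 17.9% and 15.7% of all genes, and 0 called. Without noggin replicate 1 that median was 0.0048. Arl2, its closest relative, differed by -0.18. The cargo carriers Unc119 and Pde6d differed by -0.10 and -0.09. Rp2, the protein that switches ARL3 off, differed by 0.27. Of 29 other genes of the primary cilium, 22 read lower on average in noggin. The list median was -0.09 and limma called 0, but without BMP4 replicate 1 the median was 0.03 with 14 of 29 lower, and dropping BMP4 replicate 2 gave -0.17. The transport genes Ift80 and Ift88 differed by -0.49 and -0.25, the BBSome gene Bbs7 by -0.43 and Ift46 by 0.41.

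For Mns1, 15 of 25 genes of the motile axoneme read lower on average in noggin. Over the list the median was -0.02, between -0.06 and -0.0066 with 1 array left out, and limma called 0. Foxj1, the master regulator of motile cilia, differed by 0.0065, with overlapping groups. Rsph9, a radial spoke protein, differed most, by -0.47 (limma, adjusted p = 0.874). Meiotic chromosome genes had a median of 0.0054, with 7 of 15 lower and 0 called, and this median was -0.04 without BMP4 replicate 1.

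BMP response genes are given beside the members because the design sets a BMP ligand against its antagonist. All 16 of them, the list holding Bmp4 and Nog themselves, read lower on average in noggin. Their median difference was -0.23, 8 lay lower in both noggin arrays, where 17.9% of all genes did, and limma called 0. Bambi, a decoy receptor induced by BMP, read 6.95 and 6.47 in noggin and 7.82 and 7.22 in BMP4, a difference of -0.80 (limma, adjusted p = 0.874). Msx2 differed by -0.78 and Id3 by -0.65. Without noggin replicate 2, 11 of the 16 had a lower mean and the median was -0.13, and without BMP4 replicate 1 these were 13 and -0.16.

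Loci known to differ between inbred mouse strains were compared for the same reason, since Ifi202b is one of them and the labels give no strain. Of 13 other measured loci, 5 read lower and 8 higher on average in noggin. Without overlap of the groups, 2 lay lower and 6 higher in both noggin arrays, where 17.9% and 15.7% of all genes did. The median below mixes loci of either sign. The median of the list was 0.06, or 0.03 without noggin replicate 1 or without BMP4 replicate 2, and limma called 0. H2-Ea, an MHC class II chain that some haplotypes do not express, read 6.72 and 7.04 in noggin and 7.43 and 7.45 in BMP4, a difference of -0.56 (limma, adjusted p = 0.808). Nnt, which carries a deletion in C57BL/6J, differed by 0.13, and Glo1, which is duplicated in some strains, by 0.11. Pla2g2a differed by 0.61, with 1 noggin array at 6.35 and the other 3 arrays between 5.22 and 5.32. Whether the members follow the transgene or the background of the lines was not tested and cannot be told apart from these arrays.

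Markers of keratinocytes and of other cell types that skin can hold were counted in the same way, and limma called 0 genes in each list. Keratinocyte markers were bright on all arrays, Krt5, Krt14, Krt1 and Krt10 reading between 12.25 and 13.36, with a median difference of -0.03 over 11 genes, and one of -0.14 when noggin replicate 2 was dropped or -0.10 when BMP4 replicate 2 was. Hair follicle and shaft markers read lower on average in noggin for 16 of 16 genes, 9 without overlap against 17.9% of all genes, and limma called 0. Their summed level was 10.07 to 10.29 in noggin and 11.19 to 12.36 in BMP4 (log2 of the summed linear signal). They had a median difference of -0.26, or -0.14 with 15 of 16 lower without BMP4 replicate 1, and 12 of 16 were lower without noggin replicate 2. Dropping noggin replicate 1 gave -0.39. In BMP4 the hair marker sum came mostly from Krt84 (11.60 and 9.09) and S100a3 (9.86 and 9.67), ranked 3rd and 6th by gap. Of the other hair markers, Krt25 differed by -1.74, while Krt27 and Krt35 each differed by -0.03. BMP4 replicate 1 had the higher BMP4 sum of the hair markers, and the lower BMP4 sum of the Langerhans cell and skeletal muscle lists. In the opposite direction, Langerhans cell and macrophage markers read higher on average in noggin for 11 of 13 genes, with sums of 11.97 to 12.08 against 10.78 to 11.71. Their median difference of 0.68 became 0.30 when BMP4 replicate 1 was dropped and 1.15 when BMP4 replicate 2 was. The gene of smallest p in this list, H2-Eb1, read lower in noggin, as H2-Ea above did. H2-Eb1 read 6.37 and 6.43 in noggin and 7.31 and 7.38 in BMP4, a difference of -0.95 (limma, adjusted p = 0.601). Sebaceous gland markers read higher on average in noggin for 7 of 8 and skeletal muscle markers for 9 of 10. The muscle sums overlapped at 11.69 to 12.72 against 10.86 to 12.04. Without noggin replicate 1 the muscle median was 0.14 in place of 0.56, and any 1 array left out gave between 0.14 and 1.16. The sebaceous median of 0.47 became 0.26 when noggin replicate 1 was dropped and 0.21 when BMP4 replicate 1 was. Fibroblast, endothelial, melanocyte, Merkel cell, sweat gland, T cell and B cell lists had medians between -0.02 and 0.13, and between -0.20 and 0.21 with 1 array left out. The fibroblast median was -0.20, with 7 of 8 lower, without BMP4 replicate 1, and 0.16, with 8 of 8 higher, without BMP4 replicate 2. The Merkel cell median was -0.11 without noggin replicate 1. On arrays no marker reads 0, so absence is not measured, and the part of these cell types in the members' differences was not tested.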

How the data were processed

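The authors deposited log2 intensities per probe set, made with Affymetrix Expression Console and RMA, per the submitters' processing notes, with no version or settings given. RMA subtracts background, quantile-normalizes arrays and summarizes probes, which compresses dim signals. The array medians lay between 6.04 and 6.06, and the number of arrays limits the precision.

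Of 35556 probe sets, 21789 carried 1 gene symbol and 1621 several in the platform table, and the others were unnamed here. Each gene was represented by the brightest of its probe sets on average, which gave 19938 genes, 19856 of them matched to GRCm38.p6 by Entrez identifier. The noggin and BMP4 groups were compared with limma 3.58.1 in R 4.3.3 (group as the only term, two-sided, Benjamini-Hochberg over all probe sets, threshold 0.05), and the code was tested on simulated data. Errors are SDs of 2 arrays. A called gene is one past that threshold.

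The members and lists were chosen with earlier results of these data known. Named genes were the members, the 3 largest gaps outside them, the genes bordering the smallest gap, the 2 nearest patterns per member (predicted genes skipped), immediate neighbours and neighbours differing by at least 0.5, and in each list partners of the member and then genes of smallest p. Nt5c2, Mdm2, Foxj1, Nnt, Glo1 and the genes with nearest probe set numbers fall outside this rule and were named after their values were seen. Also outside it are Nog, Id3, Krt1, Krt5, Krt10, Krt27, Krt35 and the genes named only under other observations. Some genes of smaller p, such as Msx1, Ide and Fv1, were passed over. Protein sequences were not used here, so the planned protein comparison was not run. Arrays of the same replicate number were not treated as pairs, since their deviations from the group means correlated at -0.12. Figures used matplotlib 3.10.9.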

Additional observations from a re-analysis of the deposited data

How the results depend on the processing

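The members' differences kept their sign in 49 of 49 alternatives (centring, quantile normalization, mean of all probe sets, each array left out; quantile normalization of single members was added after seeing the data), and 0 of them moved by more than the spread between pools. Leaving out 1 array gave -4.89 to -4.12 for AI506816, -3.57 to -2.38 for Btbd10, -2.40 to -1.47 for Mns1, -2.23 to -1.43 for Ifi202b, -1.30 to -0.97 for Rps27l, -0.81 to -0.68 for Arl3 and -0.70 to -0.45 for Entpd4. The median of the 7 ranged from -2.23 to -1.43. Because the members were chosen for groups that do not overlap, this is no sign of stability. With 2 arrays per group, leaving 1 out always moves the group mean by less than the SD of the 2. Each member had 1 probe set with a single symbol, so the mean of all such probe sets repeats the main value. These settings could therefore not have moved a difference past the spread.

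Limma called 0 probe sets in every alternative run. With the replicate block it called 0, and 1736 lay at an unadjusted p below 0.05, against 1994 without the block. The replicate numbers are not tied to a litter or day in the labels. The crossed pairing, chosen after seeing the data, also gave 0 calls, and 2441 at an unadjusted p below 0.05. Genes with both noggin arrays below both BMP4 arrays numbered 3568, and 1949 when genes with a mean under 6 were left out, because fewer genes were counted. The 14 genes with a gap of at least 1 became 54 at a gap of 0.5. The share of neighbours lower in both noggin arrays was 15.0%, 20% with 5 genes on each side and 15.6% with 20. The array left out in turn for the lists and neighbours was also chosen after seeing the data. The dim noggin values of AI506816 and Btbd10 limit their folds, since detection is unknown.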

Other observations

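The place of the large gaps on the chromosomes was also counted. Of the 54 genes with a gap of at least 0.5 and noggin below BMP4, 53 could be placed in the gene table, and 11 of them had another such gene within 10 measured genes. These were the type I hair keratin and keratin-associated genes Krt25, Krtap3-3 and Krtap3-1, the type II keratins Krt84 and Krt6a, the genes Skint4, Skint3 and Skint9, and the set of Dapk2, Car12 and Rps27l. The first 3 sets hold members of gene families, whose probes can bind more than 1 copy. Dapk2, Car12 and Rps27l are not related in sequence family, and they were 4 measured genes apart at each step, with differences of -1.17, -0.77 and -1.13. This grouping was looked for after the values were seen. It also depends on the limit of 0.5. Mtfmt, Myo9a and Spg21, on chromosome 9 too, had gaps of 0.49, 0.49 and 0.47 and were not counted. Their differences were -0.65, -0.80 and -0.56, and their distance in places from Rps27l is not given here.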
